A study of Homo sapiens with 12 samples.

Results

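The comparison described here asked whether 48 h of dabrafenib, an inhibitor of mutant BRAF, changed the miRNAs of a sensitive melanoma line and of its resistant derivative to the same extent. All 12 libraries of the series entered it (12 of 12), and its members are the 4 groups formed by 2 lines and 2 treatments with 3 libraries each. The groups were A375 in 0.1% DMSO, A375 in 200 nM dabrafenib, A375-BIR in 0.1% DMSO and A375-BIR in 200 nM dabrafenib, each sampled at 48 h. A375 is an established human melanoma line that carries an activated BRAF, and A375-BIR is its dabrafenib-resistant derivative, so every result compares 1 pair of lines. Both were grown in RPMI with serum, and the labels call the 3 libraries of a group biological replicates. The quantity of interest is the difference in response: the log2 fold change of dabrafenib over DMSO in A375 minus the same in A375-BIR. A positive difference therefore means a larger rise, or a smaller fall, in A375.

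A miRNA is cut from a hairpin precursor and guides the silencing complex to messages that pair with its seed, so precursors with 1 seed form a family with overlapping targets. The let-7 family represses RAS and cell cycle messages, miR-146a is induced by NF-kB and limits that pathway, and miR-221 and miR-222 are transcribed together and are well known in melanoma for repressing KIT and the cell cycle inhibitor p27. Small RNA counts can also hold pieces of longer RNAs, among them the 45S precursor of ribosomal RNA, which is processed in the nucleolus.

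The mature miRNAs on which the comparison turns are printed below from RefSeq (GRCh38.p14), 5′ to 3′, with the seed (bases 2 to 8) in capitals. The counts are of precursors and do not separate the arms, so 1 annotated arm is shown for each. In the table of mature sequences, 154 of the 175 precursors tested had an entry, and so did 5 of the 6 set apart by the test of the difference. The first 5 have 1 seed and are members of the let-7 family.
let-7a-5p: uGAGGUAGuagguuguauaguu
let-7b-5p: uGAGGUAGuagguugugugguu
let-7c-5p: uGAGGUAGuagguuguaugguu
let-7f-5p: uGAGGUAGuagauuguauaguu
let-7i-5p: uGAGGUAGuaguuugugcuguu
miR-146a-5p: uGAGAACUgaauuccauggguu
miR-146b-5p: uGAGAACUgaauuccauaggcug
miR-663a: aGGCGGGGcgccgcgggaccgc
miR-3648: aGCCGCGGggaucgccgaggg
miR-221-3p: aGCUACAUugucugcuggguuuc
miR-222-3p: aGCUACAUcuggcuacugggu
miR-196a-5p: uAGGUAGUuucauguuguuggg
miR-196b-5p: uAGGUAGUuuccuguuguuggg
miR-181a-5p: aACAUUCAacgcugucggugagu
miR-181b-5p: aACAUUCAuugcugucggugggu
Counted from the 5′ end, let-7c-5p differs from let-7a-5p by A19G, and let-7b-5p differs from let-7a-5p by A17G and A19G. Among other let-7a neighbours, let-7f-5p differs from let-7a-5p by G12A, let-7e-5p by U9G, and miR-98-5p by G11A and A19U. Outside their seeds miR-146b-5p carries G18A, U21C and a further G at position 23 relative to miR-146a-5p, and miR-196b-5p carries A12C relative to miR-196a-5p.

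The libraries were shallow, and dabrafenib libraries were shallower than DMSO libraries in both lines. Total expected counts were 77264, 121802 and 86898 in A375 in DMSO and 47507, 51532 and 36955 in A375 in dabrafenib. In A375-BIR they were 106427, 120625 and 122792 in DMSO and 35070, 59899 and 47607 in dabrafenib. In A375-BIR in DMSO, replicate 3 stood apart from the other 2, with a chi-square over its degrees of freedom of 36.5 and 42 against replicates 1 and 2, which differed from each other by 2.86. Without it the same 6 precursors were called in the difference, 46 in place of 36 in A375-BIR and 22 in place of 21 in both lines, and the differences were 1.35 for MIRLET7C, 1.03 for MIRLET7B, -1.51 for MIR146A, 1.08 for MIR663A and 1.61 for MIR3648-1. A precursor with no count could still stand at up to 24.4 to 38.8 CPM (counts relative to the library total) in a DMSO library and 50.1 to 85.5 CPM in a dabrafenib library, from the limit of 3 counts, which covers counting error only. Levels below are in CPM scaled by TMM, a factor computed from the bulk of the precursors, in the order of replicates 1, 2 and 3.
The TMM factor was 0.81, 0.69 and 0.82 in A375 in dabrafenib and lay between 1.04 and 1.19 in the other 9 libraries, so the scaling bears on the A375 response and on the difference. The median difference over the 175 precursors was 0.17 on the log2 scale with TMM, 0.05 with DESeq2's size factors, -0.30 with total counts alone and -0.06 without the rRNA-like precursors described below. Some differences are therefore also given relative to this median, but the tests and intervals below are of the difference against 0. Whether the typical precursor responded alike in the 2 lines was not tested.

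Responses differed between the lines for few precursors. Of the 175 tested, 6 (3.43%) had an adjusted p under 0.05 for the difference in the quasi-likelihood test of edgeR, Benjamini-Hochberg adjusted, 5 with a positive difference (2.86%) and 1 with a negative one (0.571%). At an unadjusted p under 0.05 the test gave 34 (19.4%), 25 positive and 9 negative. Over all 175, 103 differences were positive with TMM, against 90 with DESeq2's size factors and 57 with total counts, so the sign of a typical difference was set by the scaling. Precursors past the adjusted threshold are called below.
Within the lines the responses were more frequent. In A375, 44 of 175 (25.1%) were called, 32 higher in dabrafenib (18.3%) and 12 lower (6.86%). In A375-BIR, 36 (20.6%) were called, 23 higher (13.1%) and 13 lower (7.43%). The balance in A375 moved to 23 higher and 23 lower with DESeq2's size factors, to 18 and 44 with total counts and to 19 and 17 without the rRNA-like precursors. In A375-BIR it was 23 and 20, 22 and 13, and 13 and 11 in the same order. The filter moved the balance as well. With the filter lowered to 1 CPM (538 precursors tested) it was 19 and 34 in A375 and 25 and 28 in A375-BIR. Without a filter (839 tested) it was 20 and 27 in A375 and 20 and 17 in A375-BIR.
The precursors called in both lines moved in the same direction in 21 cases (12%), 15 higher and 6 lower, and in opposite directions in 0. The shared calls made up 47.7% of the A375 calls and 58.3% of the A375-BIR calls. A further 23 were called in A375 alone and 15 in A375-BIR alone. The difference itself was called for 3 of those 23 and for 0 of those 15 (10 and 5 at an unadjusted p under 0.05 in the same edgeR test), so for most of them a response in 1 line only was not shown. The other 116 were called in neither line.
A call that misses the threshold does not show equal responses, so the 95% interval of each difference was set against a 2-fold limit. It lay wholly between -1 and 1 on the log2 scale for 46 of the 173 precursors that had an interval. These 46 were 2 of the 21 shared calls, 3 calls of 1 line and 41 of the precursors called in neither line. The median standard error of a difference was 0.45, against 0.31 for the A375 response and 0.30 for the A375-BIR response. The 2 responses share no libraries. Across the 175 precursors they had a Pearson correlation of 0.70 and a Spearman correlation of 0.66, and across the 165 that are not rRNA-like a Pearson correlation of 0.60. Without MIR622 and MIR3929, which had 0 counts in a group and whose fitted values enter the summaries over all 175, these were 0.77, 0.69 and 0.69 (n = 173, 173 and 163). The medians of the difference and of the A375 response then did not move in the second decimal. The median of the A375-BIR response moved from -0.04 to -0.05. These are descriptions across precursors, which share libraries, scaling and in part reads.

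**Figure D1:**
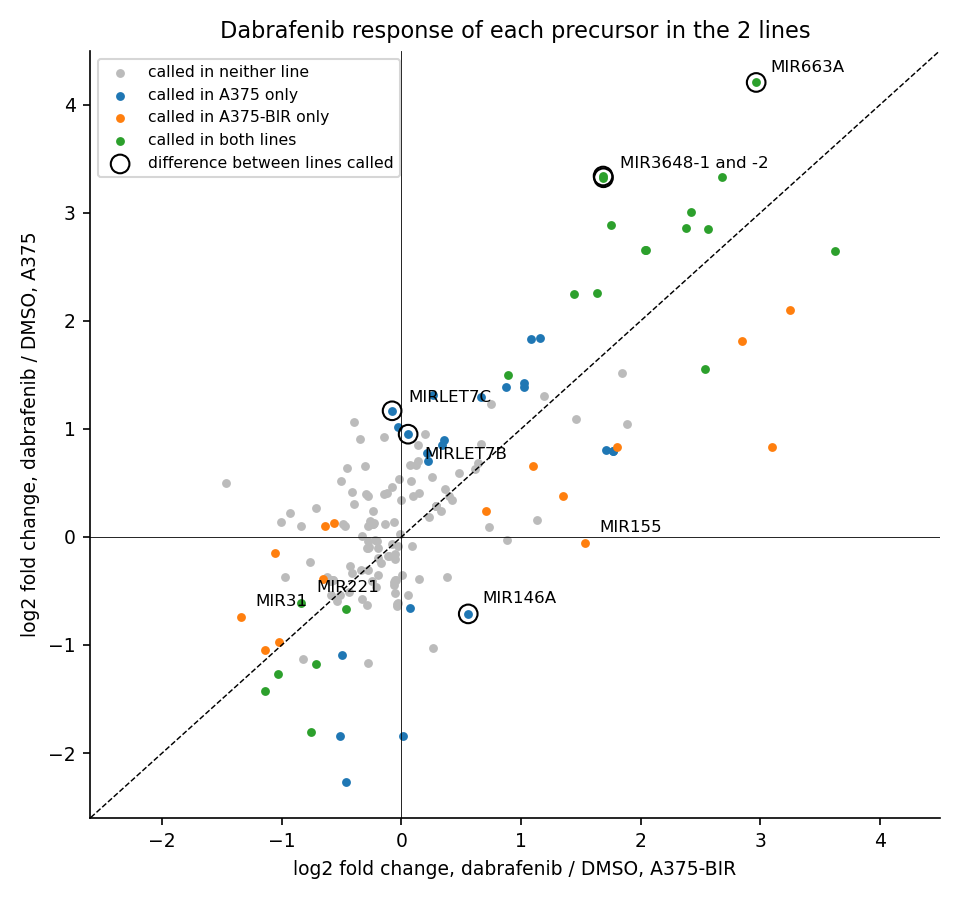
Log2 fold change of dabrafenib over DMSO in A375-BIR (horizontal axis) and in A375 (vertical axis), 1 point for each of the 173 precursors with an interval, coloured by the lines in which it was called. Rings mark the 6 called in the difference, and on the dashed line the 2 responses are equal. MIR663A and MIR3648 lie above that line among the shared rises, MIRLET7B and MIRLET7C rise on the vertical axis alone, and MIR146A lies at -0.71 in A375 and 0.56 in A375-BIR.

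MIRLET7C and MIRLET7B set the lines apart. MIRLET7C, on chromosome 21 (16539828 to 16539911, plus strand) within the long non-coding host gene MIR99AHG, stood at 2718, 2855 and 2607 CPM in A375 in DMSO and at 5476, 6997 and 5915 CPM in dabrafenib. In A375-BIR it stood at 15164, 14987 and 11210 CPM in DMSO and at 13028, 13161 and 12985 CPM in dabrafenib. All 3 dabrafenib libraries of A375 lay above its 3 DMSO libraries, whereas the A375-BIR groups overlapped. The level in A375 in dabrafenib stayed below that of every A375-BIR library. The response was 1.17 in A375 (standard error 0.16) and -0.08 in A375-BIR (standard error 0.15), a difference of 1.25 (95% interval 0.78 to 1.72, adjusted p = 0.0104 from the quasi-likelihood test of edgeR, Benjamini-Hochberg adjusted). It was called under each of the 10 other settings and with each of the 12 libraries left out, with adjusted p between 4.25e-04 and 0.0499. Relative to the median of all precursors it was 1.07, 1.07, 1.05 and 1.15 under the 4 scalings in the order given above. Subtracting the median removes most of a change of scaling for any precursor, so the likeness of these values is no test of the scaling.
MIRLET7B, on chromosome 22 (46113686 to 46113768, plus strand) in MIRLET7BHG, was the most abundant precursor in the data. It stood at 169987, 193216 and 173101 CPM in A375 in DMSO and at 303981, 393948 and 338816 CPM in dabrafenib. In A375-BIR the values were 128455, 130475 and 87036 CPM in DMSO and 115364, 109952 and 134324 CPM in dabrafenib. Again the A375 groups were apart and the A375-BIR groups overlapped. The response was 0.95 in A375 (standard error 0.15, lost as a call with the filter lowered to 1 CPM, adjusted p = 0.0723 in edgeR) and 0.06 in A375-BIR (standard error 0.15), and the difference was 0.89 (95% interval 0.43 to 1.36, adjusted p = 0.0281 from the same edgeR test). This call was less stable than that of MIRLET7C. It held in 3 of 10 other settings and in 3 of 12 fits with a library left out (without A375 DMSO replicate 2, A375-BIR DMSO replicate 3 or A375-BIR dabrafenib replicate 3), with adjusted p between 0.0199 and 0.315. The difference lay between 0.71 and 1.03 with a library left out, and it was 0.41 with total counts in place of TMM (adjusted p = 0.188 from edgeR). Relative to the median of all precursors it was 0.72, 0.72, 0.70 and 0.79 under the 4 scalings, which again is no test of the scaling.
A share within the family does not depend on the scaling between libraries. MIRLET7B took 29.1% to 33.1% of the let-7 and miR-98 counts in the A375 libraries in DMSO and 45.3% to 51.3% in dabrafenib, a mean of 31% ± 2.05 against 48.8% ± 3.08 (SD, n = 3 each). In A375-BIR its share was 21.8% ± 1.90 in DMSO and 25.4% ± 1.2 in dabrafenib. MIRLET7C took 0.473% ± 0.0147 and 0.863% ± 0.0472 in A375, and 2.62% ± 0.0815 and 2.78% ± 0.177 in A375-BIR (SD, n = 3 each). The 3 let-7a copies together went from 29.4% ± 3.08 to 26.1% ± 0.763 in A375 and from 52.0% ± 4.32 to 49.2% ± 4.61 in A375-BIR. The let-7f copies together went from 1.48% ± 0.158 to 1.00% ± 0.0456 in A375. In A375-BIR they went from 0.858% ± 0.0768 to 0.917% ± 0.0804. The difference of MIRLET7F2 was called, with a negative sign, with total counts and not with TMM. Within the family, then, MIRLET7B and MIRLET7C gained in A375 relative to the other members, and a share does not say which member changed in amount.
The remaining let-7 members gave smaller values. All 12 precursors of the family were tested, and 2 were called higher in A375 (16.7%, beside 18.3% of all precursors). In A375-BIR 0 were called, beside 20.6% of all precursors, a share that includes the rRNA-like ones. The difference was called for 2 of the 12, beside 3.43% of all precursors. The mature forms of these 2 differ at 1 position and could share reads, so they need not be 2 separate measurements. None was called lower in A375 with TMM, against 1 with DESeq2's size factors, 7 with total counts and 1 without the rRNA-like precursors. The family median was 0.06 in A375, -0.20 in A375-BIR and 0.30 for the difference, beside 0.14, -0.04 and 0.17 over all 175 precursors. With total counts the medians were -0.44, -0.22 and -0.17, so the medians in A375 and for the difference changed sign with the scaling. The A375-BIR median was negative under all 4 scalings (-0.28 to -0.16), and in A375 the median was negative under the other 3. The copies MIRLET7A1, MIRLET7A2 and MIRLET7A3 had differences of 0.36, 0.35 and 0.36, with unadjusted p under 0.05 and adjusted p = 0.190, 0.192 and 0.190 from the quasi-likelihood test of edgeR, Benjamini-Hochberg adjusted, and they turned negative with total counts (-0.12, -0.13 and -0.12). Relative to the median of all precursors, which removes most of a change of scaling, they lay between 0.17 and 0.26 under the 4 scalings. The interval of the difference lay within the 2-fold limit for 10 of the 12 members, all but MIRLET7B and MIRLET7C. MIRLET7I, with the second most counts, had a response of -0.46 in A375 and -0.21 in A375-BIR, neither called.
The genomic neighbours of both precursors were followed as well. MIRLET7C shares its host gene with MIR99A, which had 45 counts in all and was not tested, and with MIR125B2, 50326 bases away, whose difference was -0.05 (95% interval -0.84 to 0.74). MIR4763, 29 bases from MIRLET7B, and MIR3619 in the same region had 44.2 and 2.50 counts in all and were not tested. MIRLET7A3 lies 864 bases from MIRLET7B in the same host gene and had a response of 0.13 in A375 and -0.23 in A375-BIR. Because let-7a, let-7b and let-7c differ at 1 or 2 positions and RSEM divides reads that match several precursors, a part of the counts of each could belong to another. How the division differed between groups was not tested.

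**Figure D2:**
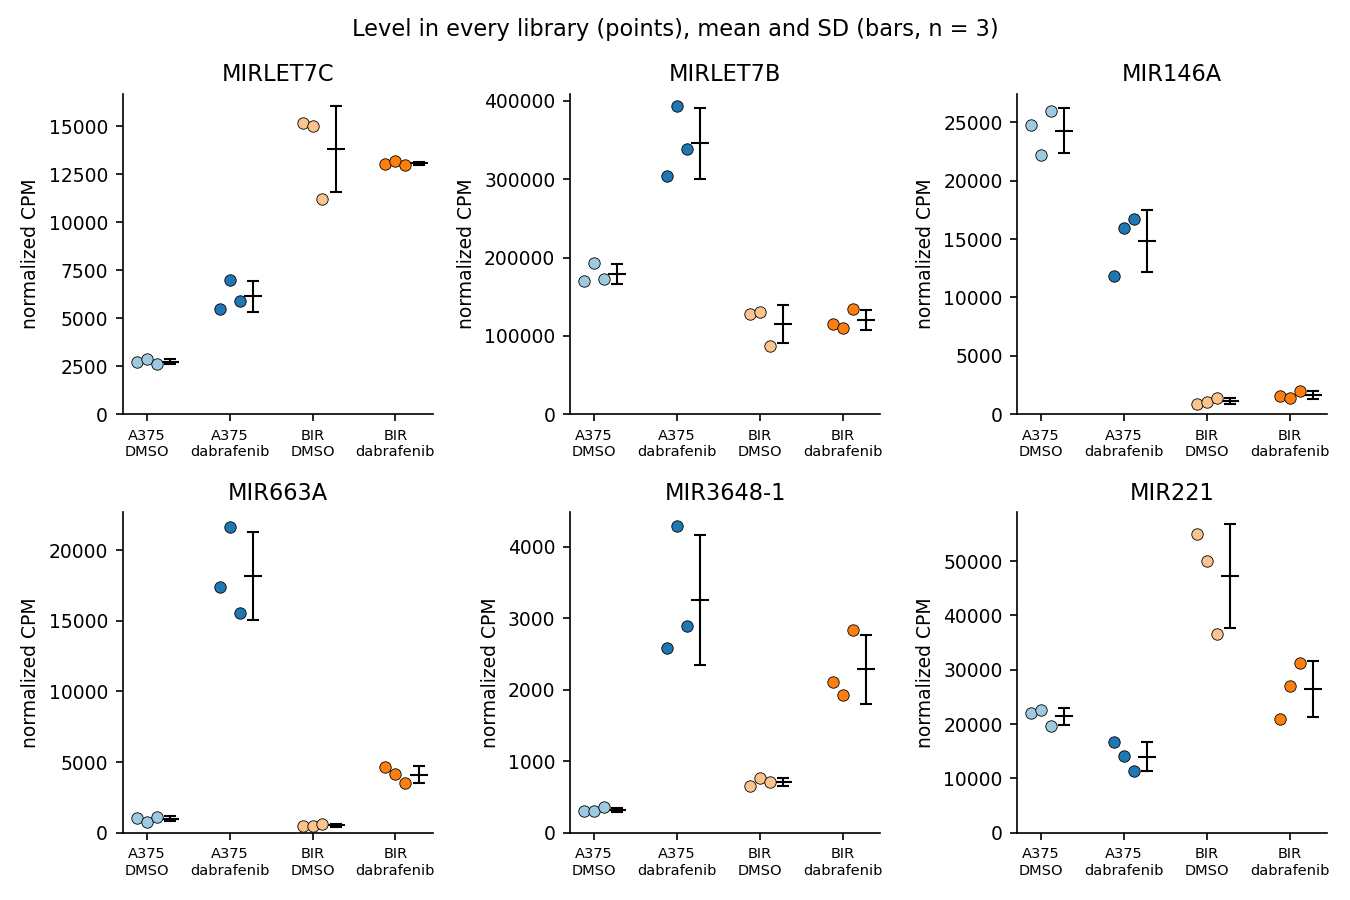
TMM-scaled CPM (vertical axes, from 0) of 5 precursors called in the difference and of MIR221, a shared fall, in the 3 libraries of each line and treatment. Points are libraries, and bars give the mean and SD (n = 3). MIRLET7C and MIRLET7B separate by treatment in A375 and overlap in A375-BIR, MIR146A falls in A375, and MIR663A, MIR3648-1 and MIR221 separate by treatment in both lines.

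MIR146A was called with a negative difference. It lies on chromosome 5 (160485352 to 160485450, plus strand) in the host gene MIR3142HG. Its level was 24735, 22209 and 25938 CPM in A375 in DMSO and 11812, 15941 and 16748 CPM in dabrafenib, and in A375-BIR 906, 1020 and 1425 CPM in DMSO and 1557, 1399 and 2002 CPM in dabrafenib. The groups were apart in A375 and overlapped in A375-BIR through DMSO replicate 3. It fell in A375 by 0.71 on the log2 scale (standard error 0.19, adjusted p = 0.0149 from the quasi-likelihood test of edgeR, Benjamini-Hochberg adjusted), while the value in A375-BIR was 0.56 (standard error 0.21, adjusted p = 0.0746), which was not called. The difference was -1.27 (95% interval -1.88 to -0.66, adjusted p = 0.0226). It stayed called under all 10 other settings (-1.73 to -1.27) and in 5 of the 12 fits with a library left out (-1.51 to -1.11), and adjusted p over these ranged from 5.63e-04 to 0.0734 in the respective tests. The A375 fall was itself lost without A375 DMSO replicate 1 or 3 or A375 dabrafenib replicate 1 (adjusted p up to 0.0772). The 7 libraries without which the difference missed the threshold were A375 DMSO replicates 1 and 3, A375 dabrafenib replicates 1 and 2, A375-BIR DMSO replicates 1 and 2 and A375-BIR dabrafenib replicate 3.
MIR146B, which has the same seed on chromosome 10, did not share this pattern in its values. Its mean was 481 CPM in DMSO and 759 CPM in dabrafenib in A375, and 2209 and 3464 CPM in A375-BIR (n = 3 each). Its response was 0.68 and 0.64, neither called, and the difference of 0.04 had a 95% interval of -0.82 to 0.91 and was -0.44 with total counts. The neighbour of MIR146A in the same host gene, MIR3142, had no count.

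The shared rises were led by rRNA-like precursors, meaning those that have at least 18 bases in a row in common with the 45S pre-rRNA on the same strand. Of 17 such rows 10 were tested, and 9 of the 10 were called higher in A375 and the same number in A375-BIR, against 18.3% and 13.1% of all precursors. Their median response was 2.93 in A375 and 2.04 in A375-BIR, beside 0.14 and -0.04 over all tested, and all 10 differences were positive with TMM and 9 with DESeq2's size factors or total counts. Their rise was seen under each scaling that kept them.
These precursors took a larger share of the library in dabrafenib in both lines. The share was 3.49%, 3.22% and 5.59% in A375 in DMSO and 21.3%, 26.3% and 20.9% in dabrafenib. In A375-BIR it was 2.65%, 2.67% and 4.57% in DMSO and 16.9%, 14.4% and 16.7% in dabrafenib. Every dabrafenib library lay above every DMSO library, and the A375 libraries in dabrafenib lay above those of A375-BIR.

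**Figure D3:**
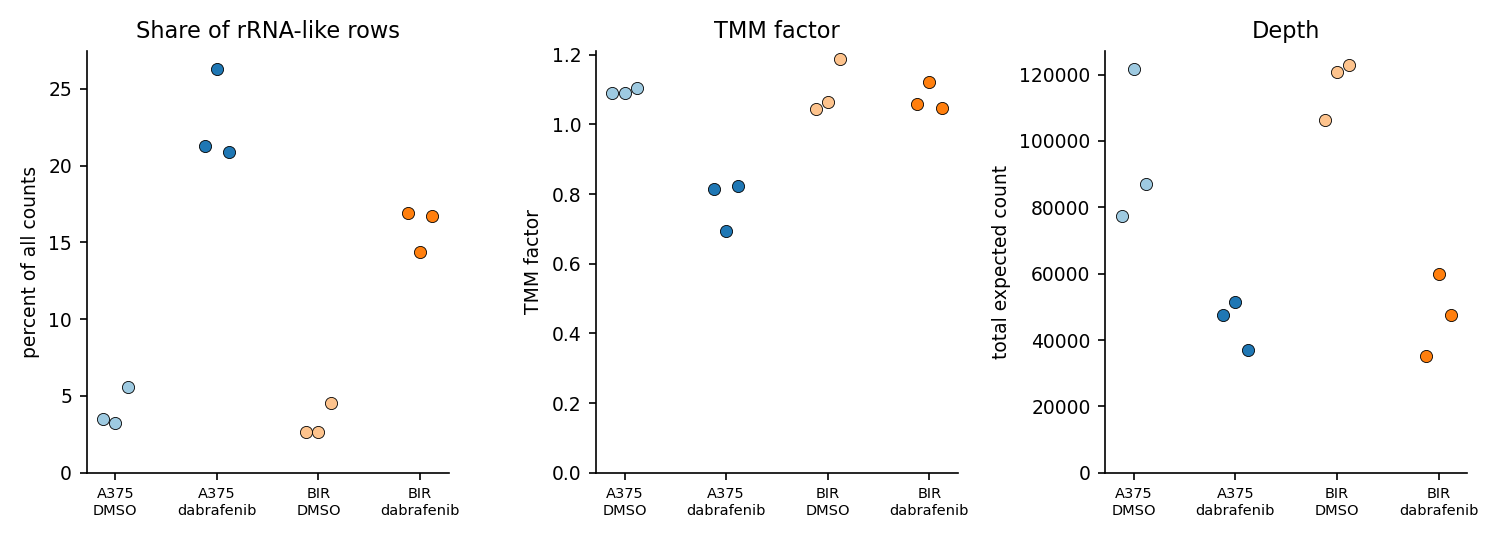
Share of counts on rRNA-like precursors (left, percent of all counts), TMM factor (middle) and total expected count (right) in the 3 libraries of each line and treatment, with all axes from 0. The share lies between 20.9% and 26.3% in A375 in dabrafenib and between 14.4% and 16.9% in A375-BIR in dabrafenib, and the TMM factor is lowest in A375 in dabrafenib.

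Among them 3 precursors at 2 places in the pre-rRNA were called in the difference, all with a blunted rise in A375-BIR. MIR663A, on chromosome 20 (26208186 to 26208278, minus strand) in MIR663AHG, has 87 of its 93 bases in a row in common with the 5′ external spacer of the 45S pre-rRNA. It rose from 1054, 797 and 1114 CPM to 17366, 21640 and 15585 CPM in A375, and from 462, 478 and 629 CPM to 4670, 4181 and 3499 CPM in A375-BIR. The groups were apart in both lines. The responses were 4.21 (standard error 0.20) and 2.97 (standard error 0.20), and the difference was 1.24 (95% interval 0.63 to 1.85, adjusted p = 0.0226 from the quasi-likelihood test of edgeR, Benjamini-Hochberg adjusted). With total counts the difference was 0.77 and was not called (adjusted p = 0.162), and the call was also lost when the filter was lowered to 1 CPM. It was lost in 6 of 12 fits with a library left out (A375 DMSO replicates 1 and 2, A375 dabrafenib replicates 1 and 2, A375-BIR dabrafenib replicates 2 and 3), with differences of 1.10 to 1.29 in those 6 fits. Over all alternatives the adjusted p ran from 0.00389 to 0.162. Within the rRNA-like counts MIR663A took 2.70% ± 0.545 in DMSO and 6.11% ± 0.468 in dabrafenib in A375, and 1.78% ± 0.149 and 2.76% ± 0.532 in A375-BIR (SD, n = 3 each).
MIR3648-1 and MIR3648-2 are copies on chromosome 21 (8208473 to 8208652 and 8986999 to 8987178, plus strand), and all 180 bases of each occur in the same spacer of the 45S pre-rRNA. MIR3648-1 stood at 299, 304 and 358 CPM in A375 in DMSO and at 2581, 4288 and 2891 CPM in dabrafenib, and in A375-BIR at 652, 769 and 705 CPM and then 2103, 1925 and 2832 CPM. Both lines separated by treatment. In DMSO every A375 library lay below every A375-BIR library, and in dabrafenib the lines overlapped. The responses were 3.34 and 1.69, and the difference was 1.65 (95% interval 0.96 to 2.35, adjusted p = 0.0110 from the same edgeR test), called in every setting that kept the precursor. The 2 copies divide the same reads and count as 1 measurement. Their combined share of the rRNA-like counts went from 1.76% ± 0.331 to 2.14% ± 0.179 in A375 and from 4.94% ± 1.24 to 3.03% ± 0.462 in A375-BIR (SD, n = 3 each).
The most abundant rRNA-like precursor, ENSG00000275110.1 on chromosome X, matches the 28S part over 26 bases and had responses of 3.01 and 2.42. Its difference of 0.59 was not called (95% interval -0.23 to 1.41). That difference was 0.26 to 0.97 with a library left out and 0.12 with total counts. MIR663B, with 40 bases in a row in common with the spacer, had responses of 3.33 and 2.68 and a difference of 0.65 that was not called (0.15 to 0.81 with a library left out). The pair ENSG00000277437.1 and ENSG00000264063.1, 192 bases beyond the MIR3648 copies in the same spacer, had responses of 2.66 in A375 and 2.04 in A375-BIR each, with a difference of 0.62 and an unadjusted p under 0.05. MIR6724-1, 3067 bases before MIR3648-1 and outside the 45S gene, had 0.29 in both lines. A read from pre-rRNA and a read from such a precursor cannot be told apart where their bases are the same. Depth was lower and the rRNA-like share higher in dabrafenib in both lines, and their part in the differences was not tested. Of the 3 called precursors that are not rRNA-like, MIRLET7C (1.08, adjusted p = 0.0266) and MIR146A (-1.45, adjusted p = 0.0266) were also called by edgeR without the rRNA-like precursors and MIRLET7B (0.73, adjusted p = 0.230) was not.

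Among the shared falls, MIR221 and MIR222 met the 2-fold limit with TMM, the only shared calls to do so. They lie on chromosome X (45746157 to 45746266 and 45747015 to 45747124, minus strand) in the host gene MIR222HG, and their mature forms have 1 seed. MIR221 stood at 22042, 22612 and 19608 CPM in A375 in DMSO and at 16688, 14079 and 11298 CPM in dabrafenib, and in A375-BIR at 55024, 50098 and 36637 CPM and then 21030, 27089 and 31250 CPM. MIR222 stood at 4597, 4396 and 4595 CPM and then 2816, 2793 and 2958 CPM in A375, and at 16234, 16587 and 15961 CPM and then 13219, 12484 and 9587 CPM in A375-BIR. In each line and for both precursors, the dabrafenib libraries lay below the DMSO libraries. MIR221 fell by 0.61 in A375 and by 0.84 in A375-BIR (difference 0.23, 95% interval -0.35 to 0.80), and MIR222 fell by 0.67 and by 0.47 (difference -0.20, 95% interval -0.64 to 0.24). With total counts the difference was -0.26 for MIR221 and -0.67 for MIR222. Both were called lower in both lines under each of the 4 scalings, but not with every library left out. In A375 the MIR221 call was lost in 4 of 12 such fits (A375 DMSO replicates 1 and 2, dabrafenib replicates 2 and 3) and the MIR222 call in none. In A375-BIR the MIR221 call was lost without DMSO replicate 1, and the MIR222 call without DMSO replicates 1 or 2 or dabrafenib replicates 2 or 3. In A375-BIR both were also lost with only the 6 libraries of that line, and MIR222 with the replicate number as a block. Adjusted p reached 0.134 for MIR221 and 0.1 for MIR222 over these fits.
The other shared falls were MIR15B, MIR584, MIR887 and MIR196A1. MIR15B, of the miR-15 family that represses BCL2 and cyclins, had responses of -1.42 and -1.14. MIR584 had -1.27 and -1.03, MIR887 had -1.17 and -0.71, and MIR196A1, in the HOXB cluster, had -1.81 and -0.76. None of these 4 differences was called, and their intervals reached past the 2-fold limit. The A375 call of MIR15B was lost in 4 of 11 other settings and in 6 of 12 fits with a library left out. In A375-BIR the calls of MIR15B, MIR584, MIR887 and MIR196A1 held in 11, 10, 2 and 6 of those 12 fits, and without A375-BIR DMSO replicate 1 no fall was called in both lines.
Beside the rRNA-like precursors, 6 shared rises remained, which were MIR10B, MIR612, MIR632, MIR3652, MIR4449 and MIR4657. MIR10B, an abundant precursor in the HOXD cluster, stood at 1317, 1655 and 1672 CPM in A375 in DMSO and at 3572, 5558 and 4054 CPM in dabrafenib. In A375-BIR it stood at 1631, 1545 and 1680 CPM and then 2868, 3114 and 3014 CPM. The lines began at like levels, and dabrafenib libraries were above DMSO libraries in both. The responses were 1.5 and 0.89, with the A375-BIR call lost when no filter was applied, and the difference of 0.61 (95% interval 0.05 to 1.17) had an unadjusted p under 0.05 and was not called. MIR632 (2.85 and 2.56) and MIR4657 (2.64 and 3.63) had the highest mean responses among these 6, on 63.8 and 78.7 counts in all 12 libraries. MIR4657 varied most, with 410, 75.2 and 20.2 CPM in A375-BIR in dabrafenib and 495, 451 and 66.5 CPM in A375 in dabrafenib. With a library left out its difference of -0.98 ranged from -1.51 to 0.51 (the latter without A375-BIR dabrafenib replicate 1), and its call held in 7 of 12 fits in A375 and 8 of 12 in A375-BIR. The A375-BIR call of MIR4657 was also lost with limma-voom and with only the 6 libraries of that line. For MIR632 the difference of 0.28 ranged from -0.08 to 0.82 with a library left out. The A375-BIR call of MIR632 was lost without A375-BIR dabrafenib replicate 1 and when no filter was applied. MIR612 had 2.89 and 1.75, and MIR3652 had 1.55 and 2.54.
Of the 21 shared calls, 18 had the larger absolute response in A375, 13 of the 15 rises and 5 of the 6 falls. With DESeq2's size factors this was 19 of 28, with total counts 21 of 25, and without the rRNA-like precursors 8 of 12. The difference was called for 3 of the 21, so a larger response in A375 was called for MIR663A and the MIR3648 copies and for no other shared call. The MIR663A call held in 7 of 9 other settings and in 6 of 12 fits with a library left out.

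The precursors called in A375 alone were 17 higher and 6 lower. Of these 23 calls, 14 remained with DESeq2's size factors, 9 with total counts, 19 without the rRNA-like precursors and 11 to 23 with a library left out. With the filter lowered to 1 CPM 8 remained, without a filter 9, in the DESeq2 test 12 and with the replicate number as a block 14. Beside MIRLET7B and MIRLET7C, the rises included MIR204, a melanocyte miRNA in the TRPM3 gene, the 3 miR-199 copies, the 3 miR-509 copies, MIR181B1, MIR181B2, MIR10A, MIR25 and MIR99B. The calls of MIR25, MIR10A and the 2 miR-181b copies were lost with total counts, with the filter lowered to 1 CPM and without a filter, and that of MIR25 also with DESeq2's size factors and in the DESeq2 test. MIR204 stood at 1892, 1610 and 1619 CPM in A375 in DMSO and at 5893, 8521 and 3888 CPM in dabrafenib, and in A375-BIR at 163, 102 and 138 CPM and then 246, 180 and 485 CPM. In both lines each dabrafenib library exceeded each DMSO library. The responses were 1.84 and 1.16 (adjusted p = 2.89e-04 and 0.0632 from the quasi-likelihood test of edgeR, Benjamini-Hochberg adjusted), and the difference of 0.69 had a 95% interval of -0.40 to 1.77, so the same response in A375-BIR lies inside what these data allow (0.36 to 1.22 with a library left out). ENSG00000278791.1 (1.83) and MIR199A2 (1.42) followed by size, with differences of 0.75 and 0.40 that were not called. With a library left out these differences ranged from 0.34 to 1.49 and from -0.02 to 0.97. With total counts they were 0.29 and -0.08. Their A375 calls held in 6 and 7 of 12 fits with a library left out and in 6 and 5 of 11 other settings.
The falls in A375 alone were MIR365B, MIR4521, MIR196A2, MIR30D, MIR767 and MIR146A. MIR365B had 0 counts in A375 dabrafenib replicate 2 and a response of -2.27 in A375 and -0.46 in A375-BIR, and its A375 call was lost when copies with 1 mature sequence were summed. MIR4521 had -1.85 and 0.02, and MIR196A2 had -1.84 and -0.51. Their differences were -1.80, -1.86 and -1.33, each with an unadjusted p under 0.05 and none called. With a library left out they ranged from -3.44 to -1.22, from -3.03 to -1.49 and from -1.65 to -0.97, the first 2 lowest without A375 dabrafenib replicate 1. The A375 call of MIR4521 was lost in 4 of these 12 fits, with limma-voom and with the replicate number as a block, and that of MIR767 in 5 of 12 and with the block. MIR30D, one of the 10 precursors with the most counts, fell by 1.10 in A375 and had -0.49 in A375-BIR, and its difference of -0.60 was called with total counts in place of TMM (-1.07, adjusted p = 0.0499 from edgeR, where the range over all alternatives was 0.0499 to 0.587). With a library left out the difference lay between -0.80 and -0.29.
In A375-BIR alone, 8 precursors were called higher and 7 lower. Of these 15 calls, 15 remained with DESeq2's size factors, 14 with total counts, 13 without the rRNA-like precursors and 6 to 14 with a library left out. In the DESeq2 test 11 remained, with the replicate number as a block 9 and with only the 6 libraries of A375-BIR 5. MIR31, which is far more abundant in A375-BIR, had 10246, 10415 and 10034 CPM there in DMSO and 3605, 4768 and 3722 CPM in dabrafenib, and in A375 it had 311, 364 and 379 CPM and then 261, 198 and 166 CPM. Both lines were lower in dabrafenib in every library. The response was -1.34 in A375-BIR and -0.74 in A375 (adjusted p = 3.38e-05 and 0.0736 from the same edgeR test), with a difference of 0.60 (95% interval -0.06 to 1.26, and 0.32 to 0.74 with a library left out). MIR7-1 had -1.14 in A375-BIR and -1.04 in A375, and MIR296 had -1.06 and -0.15. The largest rises, MIR4647 (3.25), MIR1225 (3.10) and MIR150 (2.85), rest on 61.8, 73 and 47 counts in all, and their values in A375 were 2.10, 0.83 and 1.81. With a library left out their differences ranged from -2.20 to -0.36, from -3.13 to -1.70 and from -1.58 to -0.58, and the calls of MIR4647 and MIR150 held in 10 and 8 of 12 fits. The MIR150 call was also lost with the replicate number as a block. MIR155, an NF-kB target like miR-146a, had 45.3, 125 and 83.0 CPM in A375-BIR in DMSO and 27.3, 346 and 324 CPM in dabrafenib, beside 1688, 1746 and 1882 CPM and then 1643, 1975 and 1495 CPM in A375. The A375-BIR groups overlapped through dabrafenib replicate 1, and the call in A375-BIR held in 4 of 12 fits with a library left out and was lost with limma-voom and with only the 6 libraries of that line. Its difference was -1.59 (95% interval -2.88 to -0.30, adjusted p = 0.190), and it was called in 4 of 10 other settings and without A375-BIR dabrafenib replicate 1 (adjusted p = 0.0212 in edgeR), with adjusted p from 0.00626 to 0.414 over the alternatives.
At the extremes of the difference among precursors with an unadjusted p under 0.05, the lowest were MIR1225 (-2.27), MIR4521, MIR365B, MIR155 and MIR196A2, and the highest were MIR532 (1.96), the 2 MIR3648 copies, MIR196B (1.25) and MIRLET7C. MIR532 had 149 counts in all and responses of 0.49 and -1.46, neither called, and its difference ranged from 1.40 to 3.15 with a library left out.

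Families were described by fixed lists of 35 families, of which 31 had a tested member and 85 members were tested. A member was called in either line in 16 families, in both lines in 4 families (5 precursors) and in the difference in 2, let-7 and miR-146. Of the 85 members, 23 were called in A375 (27.1%, beside 25.1% of all precursors) and 7 in A375-BIR (8.24%, beside 20.6%). The shares of all precursors include the rRNA-like ones, which these families do not hold. Among the 165 precursors that are not rRNA-like, 23 were called higher and 12 lower in A375, and 14 higher and 13 lower in A375-BIR. The interval of the difference lay within the 2-fold limit for 33 (38.8%, beside 26.6% of all that had an interval). The counts for each family below stand beside the shares of all 175 precursors called with TMM. These were 18.3% higher and 6.86% lower in A375, and 13.1% higher and 7.43% lower in A375-BIR.
In the miR-10 family both members were tested. Both were called higher in A375 and MIR10B in A375-BIR, beside 18.3% and 13.1% of all precursors called higher. The median difference of the family was 0.58 with TMM and 0.11 with total counts, positive in each scaling. In the miR-221 and miR-222 family the median was -0.64 in A375 and -0.65 in A375-BIR, with a median difference of 0.01 that was negative under the other 3 scalings, -0.46 with total counts.
In the miR-196 family, MIR196A1 and MIR196A2, whose mature miRNA is the same, stood at 491, 349 and 400 CPM and 551, 425.2 and 505 CPM in A375 in DMSO, and at 52.1, 169 and 133 CPM and 52.1, 169 and 199 CPM in dabrafenib. MIR196B in the HOXA cluster stood at 108, 83.5 and 73.6 CPM and then 130, 113 and 266 CPM. Its difference was 1.25 beside -1.05 and -1.33 for the 2 copies of miR-196a, all 3 with an unadjusted p under 0.05 and none called with TMM. With total counts, MIR196A1 (-1.53) and MIR196A2 (-1.81) were called, each with adjusted p = 0.0499 from edgeR, and over the alternatives their adjusted p lay between 0.0499 and 0.712. The sign of each held under the 4 scalings, but MIR196B was called in neither line, and its difference was called in none of the 22 alternatives. All 3 rest on few counts in A375 in dabrafenib. These were 5, 4 and 8 for MIR196B, 2, 5.5 and 4 for MIR196A1, and 2, 5.5 and 6 for MIR196A2.
In the miR-99 and miR-125 families, 2 and 3 members were tested. MIR99B was called in A375 (1.01, beside -0.03 in A375-BIR, difference 1.05) and no other member was called in either line with TMM, while 1 miR-125 member was called lower in A375 under the other 3 scalings. The MIR99B call was lost under those 3 scalings. The 6 miR-30 members had a median difference of 0.44 (-0.60 to 0.66) that became -0.05 with total counts, and MIR30D was the 1 member called in a line with TMM, while 2 members were called lower in A375 with total counts. In the miR-17 family 5 members were tested and 0 were called in either line (1 lower in A375 with total counts), with a median of -0.52 in A375 and -0.28 in A375-BIR, both negative under each scaling. The families miR-23, miR-148, miR-191 and miR-320 had 0 calls in either line under all 4 scalings. Of these MIR320A was among the 10 precursors with the most counts, with responses of 0.14 and -0.26 and a difference of 0.41 that was -0.06 with total counts. The families miR-26, miR-29, miR-183 and miR-193 had 0 with TMM, but a miR-183 member was called lower in A375 under the other 3 scalings, a miR-29 member lower in A375-BIR with DESeq2's size factors, and 1 member each of miR-26 and miR-193 lower in A375 with total counts.
The miR-199 copies were called in A375 with TMM (median 1.39, beside 1.02 in A375-BIR) and none with total counts, on few counts each. The 3 tested miR-509 copies had 0.80 in A375 and 1.77 in A375-BIR as medians, and of their 3 calls in A375 none remained with DESeq2's size factors or total counts and 2 without the rRNA-like precursors, and in A375-BIR each had no more than 3 counts in any library, so their response there could not be measured at this depth. The families miR-19, miR-103, miR-200 and miR-374 had no tested member.

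**Figure D4:**
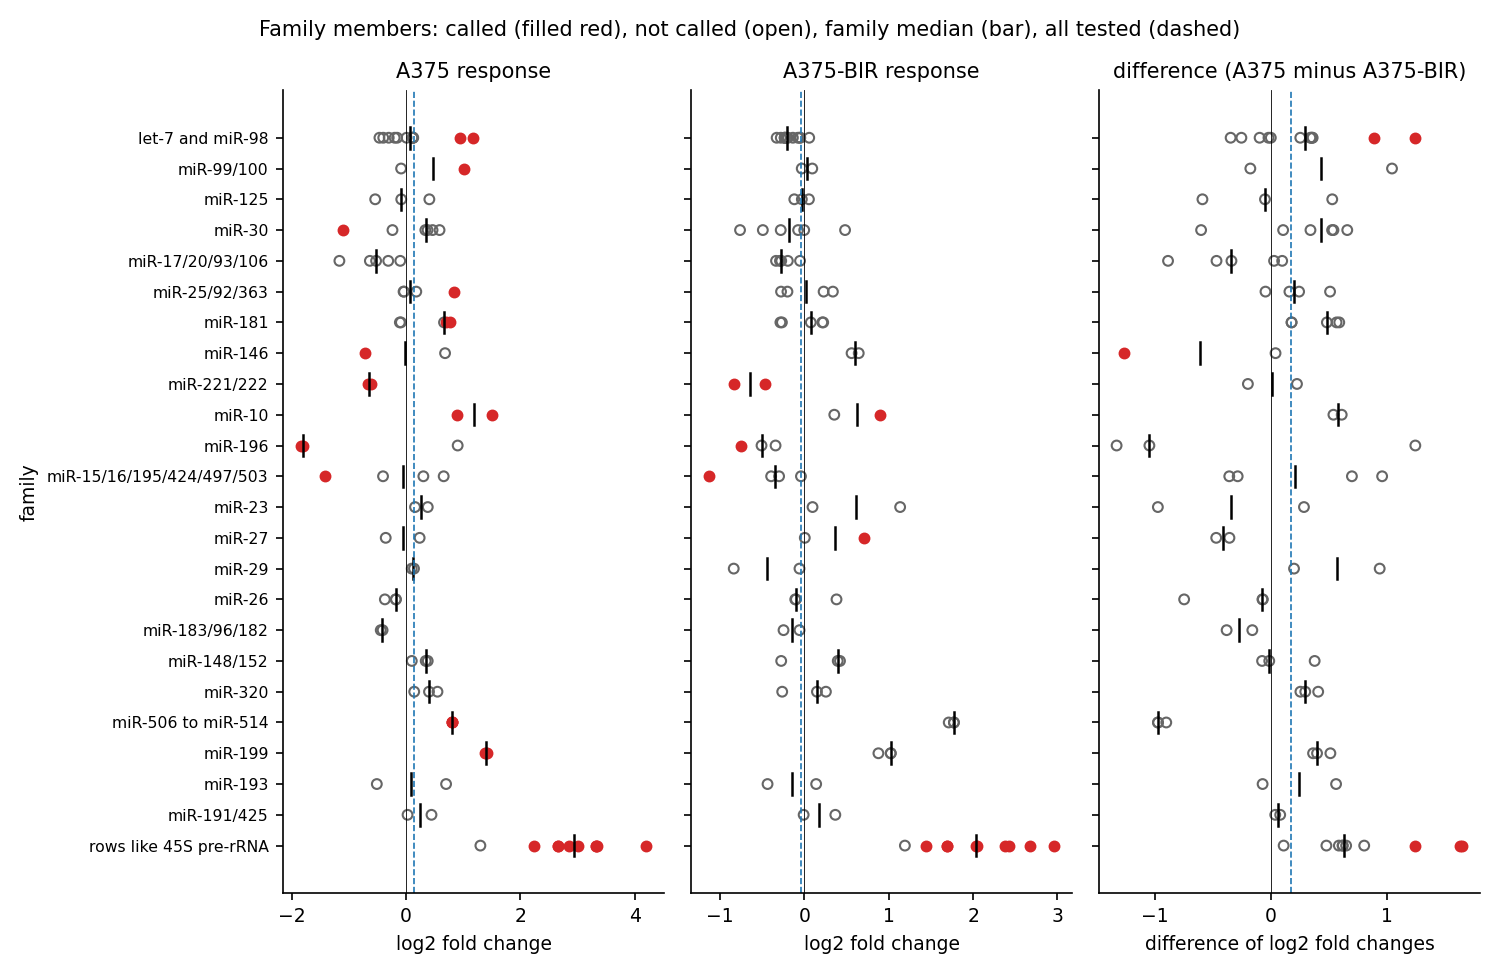
Response in A375 (left), response in A375-BIR (middle) and difference (right) on the log2 scale for each tested member of the 23 families with at least 2 tested members and for the rRNA-like precursors. Filled points were called, open points were not, black bars are family medians and the dashed line is the median of all 175 precursors. The rRNA-like precursors lie farthest to the right in both lines, and calls in the difference appear in let-7, miR-146 and the rRNA-like group.

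In the miR-181 family, 5 of 6 precursors were tested. MIR181B1 stood at 6585, 6613 and 6477 CPM in A375 in DMSO and at 11786, 11793 and 10168 CPM in dabrafenib, and in A375-BIR at 6051, 5474 and 5650 CPM and then 6446, 6197 and 7241 CPM. Dabrafenib libraries exceeded DMSO libraries in both lines, by a wide gap in A375 and a narrow one in A375-BIR. The responses were 0.78 and 0.21 (adjusted p = 6.16e-04 and 0.278 from the quasi-likelihood test of edgeR, Benjamini-Hochberg adjusted). The difference was 0.57 (95% interval 0.16 to 0.98, adjusted p = 0.190), within the 2-fold limit, and it was 0.10 with total counts. MIR181B2, the copy that divides reads with it, had 0.71 and 0.22, a difference of 0.48. MIR181A1 and MIR181A2 had -0.09 and -0.11 in A375 and -0.27 and -0.29 in A375-BIR, both differences being 0.18 with intervals within the 2-fold limit and turning to -0.29 with total counts. With total counts the 2 miR-181a copies were called lower in A375 and the miR-181b copies were not called. MIR181D, a sparse precursor, had a difference of 0.59 with a 95% interval of -1.45 to 2.63. MIR224 had 0 counts in all 6 A375 libraries and 2, 12 and 20 counts in A375-BIR in DMSO and 4, 8 and 4 in dabrafenib, so no response could be compared. MIR622 and MIR3929, with 0 counts in the 3 A375 libraries in dabrafenib, are given no fold change here, and in A375 in DMSO they had 1.00 to 3.54 and 0 to 3.50 counts.

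The labelled cell type was checked against miRNA markers. Of 17 melanocyte precursors 11 had a count, MIR204 the most, and their summed level in CPM without TMM was 3468, 3243 and 3222 in A375 in DMSO, 6357, 7432 and 5439 in A375 in dabrafenib, 225, 199 and 228 in A375-BIR in DMSO and 570, 351 and 735 in A375-BIR in dabrafenib. MIR211, which marks pigmented melanocytes, had at most 9 counts in a library. The lines thus differ in this list by far more than the treatments do, and in each line its sum was higher in every dabrafenib library.
Markers of other cell types were low beside the melanocyte list in A375, but not in A375-BIR. The liver marker MIR122 and the red cell marker MIR451A had 0 counts in all 12 libraries. Of the other blood cell markers MIR150 was the most abundant, and the 5 summed to 28.2, 33.2 and 32.6 CPM in DMSO and 200, 292 and 210 CPM in dabrafenib in A375-BIR. MIR150 was called higher there, but not with the replicate number as a block. In A375 the 5 markers summed to 64.7, 106.7 and 51.8 CPM and then 21.1, 194 and 189 CPM, and those groups overlapped. The epithelial list, led by MIR205, stayed under 300 CPM, the muscle list, led by MIR1-2, at most 69.0 CPM, the neuronal list, led by MIR9-1, at most 357 CPM and the endothelial MIR126 at most 73.3 CPM. MIR143 and MIR145 of smooth muscle and fibroblasts, led by MIR143, summed to 155, 296 and 667 CPM and then 526, 543 and 325 CPM in A375, and to 249, 257 and 253 CPM and then 627, 785 and 1113 CPM in A375-BIR. In A375-BIR this sum exceeded that of the melanocyte list in all 6 libraries. MIR143 was among the 8 called higher in A375-BIR alone (1.80, beside 0.83 in A375). The part of this list in the results was not tested.

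**Figure D5:**
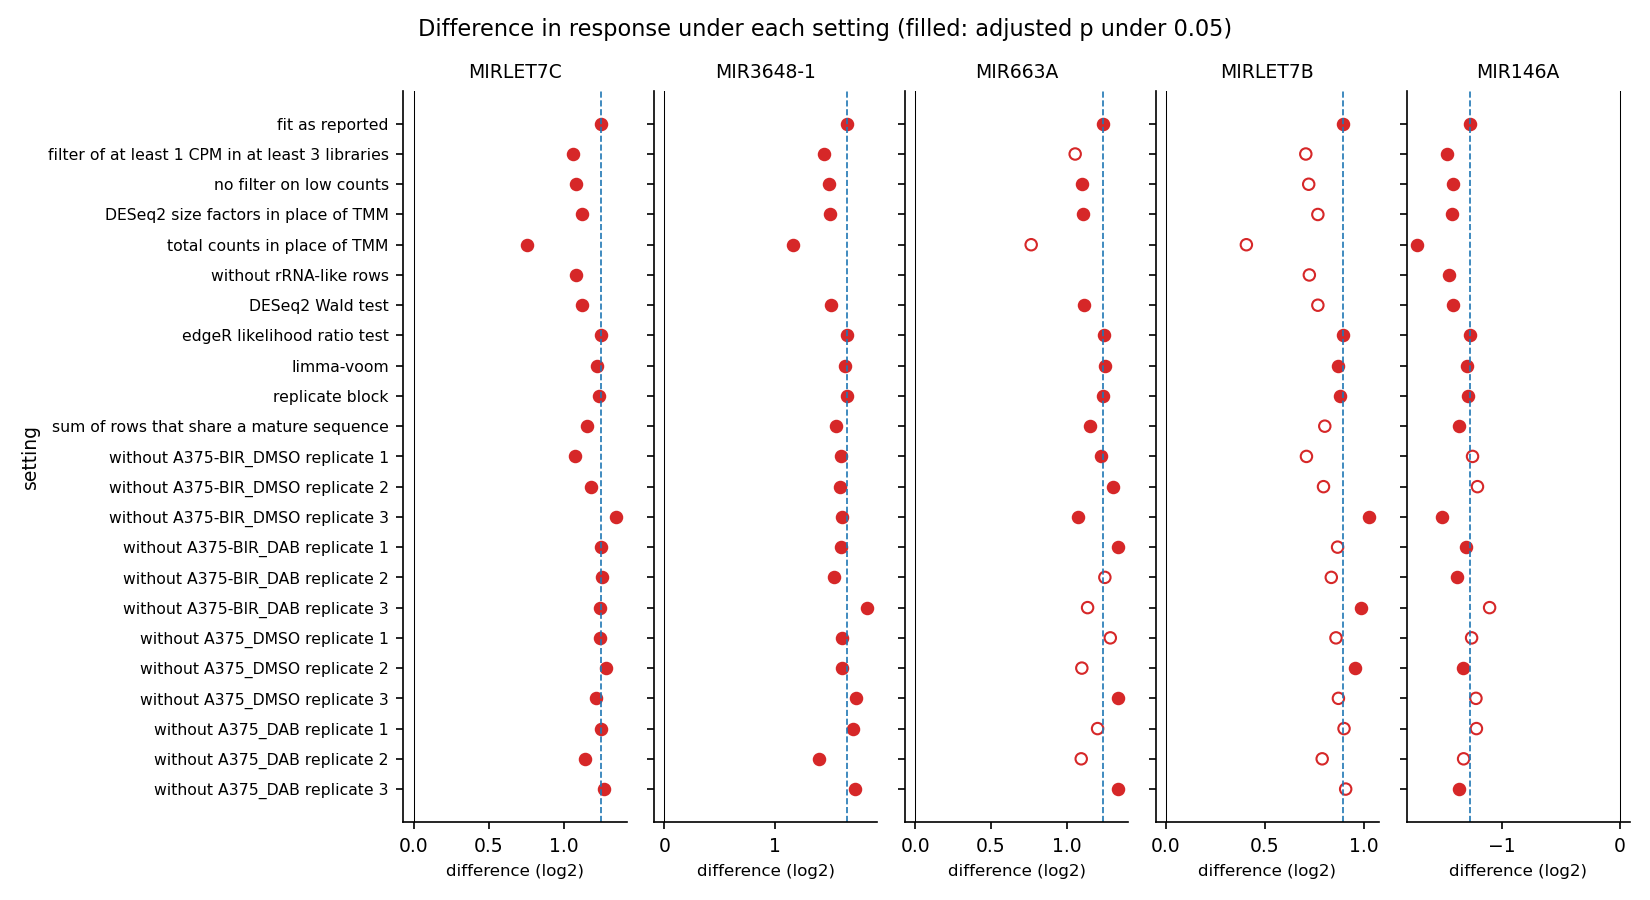
Difference in response (horizontal axes, log2) of 5 called precursors under each setting, with filled points where the adjusted p was under 0.05 and a dashed line at the value reported. The points of MIRLET7C and MIR3648-1 are filled in every setting that kept them, those of MIRLET7B in few, and no point crosses 0.

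Of the 6 calls in the difference, 2 were also called without the rRNA-like precursors, 4 with total counts and 5 with DESeq2's size factors. With total counts 4 others were added, MIR196A1, MIR196A2, MIR30D and MIRLET7F2, all negative, where the median of all differences was also negative.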

How the data were processed

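Small RNA of A375 and A375-BIR in DMSO or dabrafenib was sequenced in 12 libraries. Per the labels and the study's methods, the authors trimmed the reads, removed rRNA and phiX reads and deposited RSEM (1.2.25) expected counts for 1881 miRNA precursors (hg38), not normalized. Whether their rRNA set held the spacers of the 45S precursor is not given in the sources used here. A filter by sequence of that kind lowers rRNA-like counts to an unknown extent.

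Here the expected counts were rounded, filtered (filterByExpr, 175 precursors, at least 98.7% of each library's counts), scaled by TMM and fitted in edgeR 4.0.16 (R 4.3.3) with 1 mean for each group, without a replicate block. Quasi-likelihood tests covered the difference and each line, with Benjamini-Hochberg adjustment over all 175 and a threshold of 0.05. Standard errors and 95% intervals came from the information matrix of the fit and the posterior quasi-dispersion. The biological coefficient of variation was 21.6%. Libraries of a group differed by more than counting error alone (chi-square over its degrees of freedom 2.86 to 42.0 in 12 pairs). Names and positions came from GENCODE v44, and rRNA-like precursors were found against RNA45SN2 (chromosome 21, 8205988 to 8219302).

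The miRNAs named were every call in the difference, the 5 lowest and 5 highest differences at an unadjusted p under 0.05, the 5 lowest and 5 highest shared calls by mean response, the 3 lowest and 3 highest calls of 1 line, the 10 with the most counts, fixed families, genomic neighbours of the calls, the miR-181 family and MIR224. Members and lists were chosen with earlier results of these data known, and the other miRNAs named were chosen after their values were seen. Alternatives were 2 filters, 2 scalings, removal of rRNA-like rows, DESeq2 1.42.0, the likelihood ratio test, limma-voom 3.58.1, a replicate block, summed copies, single-line fits and each library left out. The fit was also run on simulated counts, whose outcome is not reported here. Tables and figures were made in Python 3.11.15 with pandas 2.3.3 and matplotlib 3.10.9.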

Additional observations from a re-analysis of the deposited data

Results flagged for a closer look

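A test of the difference in response between A375 and A375-BIR called 6 precursors, of which 3 are rRNA-like. With a library left out, the calls of MIRLET7B, MIR146A and MIR663A held in 3, 5 and 6 of 12 fits. Those of MIRLET7C and the MIR3648 copies held in all 12. The differences on the log2 scale, A375 minus A375-BIR, were 1.25 for MIRLET7C, 1.65 for MIR3648-1, 1.64 for MIR3648-2, -1.27 for MIR146A, 1.24 for MIR663A and 0.89 for MIRLET7B. The MIR3648 copies divide the same reads and stand for 1 measurement.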

How the results depend on the processing

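The number of precursors called in the difference was 6. It was 2 without the rRNA-like precursors, where 3 of the 6 were removed and MIRLET7B missed the threshold, and 3 to 6 with 1 library left out, lowest without A375 DMSO replicate 1 or A375 dabrafenib replicate 1 or 2. Of these 6, 3 were called in 1 line only. With total counts, 5 precursors were called both in the difference and in 1 line only. MIRLET7B was not among those 5, and precursors from outside the 6 were. With a library left out that number was 1 to 3. The 3 with a smaller response in 1 line were 0 without the rRNA-like precursors, because all 3 are rRNA-like and were removed there. The 36 calls in A375-BIR were 19 with only the 6 libraries of that line and 20 to 46 with a library left out. The 21 shared calls were 12 without the rRNA-like precursors, where 9 of the 21 were removed, MIR196A1 lost its call in A375-BIR and 1 other was gained, and 13 to 22 with a library left out.

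The replicate number as a block gave 6 calls in the difference, but 34 in place of 44 in A375, 26 in place of 36 in A375-BIR, and 2 shared falls in place of 6. MIR15B lost its A375 call, and MIR196A1, MIR222, MIR887 and the shared rise MIR7704 lost theirs in A375-BIR. Whether equal numbers mark paired cultures is not stated, and correlations of the residuals over 0.1 for all 3 numbers occurred only between the DMSO groups of the 2 lines.

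With 3 libraries for each group and dabrafenib libraries of 35070 to 59899 counts, small differences and sparse precursors could not be resolved. Intervals cover counting error and spread between libraries, and they do not cover the choice of scaling. A single resistant line cannot separate resistance from other differences between the lines.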
